A study of Mus musculus with 10 samples.

Results

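The cell cycle and mitosis genes described here are 40 genes of the 24062 in the deposited expression table, found by their symbols. They were placed in 3 phases by what their products do. The phases were G1/S control (4 genes: Ccnd1, Ccne1, Ccne2 and E2f1), DNA replication (13 genes) and mitosis (23 genes). All 40 symbols were present once. The genes were followed through 8 liver pools, each of 4 mice, and 2 hepatocellular carcinomas of single mice. The pools cover 2 diets (normal or Western), 2 treatments (carbon tetrachloride, CCl4, a toxin that injures hepatocytes, or its oil vehicle) and 2 durations (12 and 24 weeks), with 1 pool for each combination. Normal diet with oil served as the unexposed liver. The tumours came from mice on Western diet with CCl4 at 24 weeks. The sources used here do not give strain, sex, age or CCl4 dose. The study's design text sets CCl4 alone, Western diet alone and the 2 exposures together against normal liver, and adds the tumours.

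A resting cell enters the cycle when D-type cyclins with Cdk4 and Cdk6, and then E-type cyclins with Cdk2, phosphorylate the retinoblastoma proteins and so release E2F transcription factors. E2F factors switch on genes for origin licensing (Cdc6, Cdt1 and the Mcm helicase), for DNA synthesis and for nucleotide supply (Rrm1, Rrm2, Tyms and Tk1). Mitotic genes follow in G2, under Foxm1 and the MuvB complex, and their promoters often carry a CHR element (TTTGAA) near CCAAT boxes, while an E2F site has the core TTTNNCGC. Hepatocytes of an adult liver are mostly quiescent, and re-enter the cycle after injury or loss of tissue.

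The values are normalised read counts as deposited, and each value was a whole number of reads times 1 constant for its library. Read totals ran from 23206229 to 30137802 per library. The median gene among the 23 mitosis genes had 16 reads in unexposed liver of 12 weeks and 247 in tumour 1, so the low levels rest on few reads. No condition had a second pool. The 2 durations stood in for repeats of a condition after a duration term was fitted, and p-values weigh a change against the spread between those pools, not between animals. In such bulk samples, more cycling cells and more RNA per cycling cell cannot be told apart. Hepatocyte markers were abundant in each library, with Alb (albumin) at 54802 or more. In tumour 2 Alb (203789) and Apoa1 (22796) were at their highest, while Ttr, G6pc and Hpd were at their lowest of the 10 libraries, and 6 of the 8 markers had negative changes in the tumour comparison.

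Promoter sequences are shown for genes of the mitosis and replication phases, because the phases differ in which elements they hold. RefSeq's table on GRCm38.p6 held 32 of the 40 genes, from 250 bases before to 50 after each start. The strings searched, on both strands, were TTTGAA of the CHR element, CCAAT of the CCAAT box and TTTNNCGC of the E2F site. TTTGAA was found for 13 of 18 mitosis genes (72.2%), 1 of 12 replication genes (Mcm2) and 20.2% of all 27025 genes in the table. CCAAT was found for 16 of 18 mitosis genes (88.9%), 8 of 12 replication genes (66.7%) and 41.1% of all genes. TTTNNCGC was found for 7 of 12 replication genes (58.3%: Cdc6, Cdt1, Mcm3, Mcm5, Mcm6, Mcm7 and Tyms), 2 of 18 mitosis genes (Cdk1 and Racgap1) and 5.93% of all genes. Such a match is a description of the letters and not a measured binding site. Tk1, Nusap1, Birc5, E2f1 and Ccne1 matched none of the 3 strings in their windows. The 120 bases before the start follow, 5′ to 3′ on the gene's strand, with matches to the 3 strings or to their reverse complements in capitals. Mki67 (chr7:135716380-135716499, minus strand) has TTTGAA at 2 places, Cdc20 (chr4:118437344-118437463, minus strand) has CCAAT on either side of TTTGAA, Top2a (chr11:99024190-99024309, minus strand) has a reversed TTTGAA and 3 CCAAT boxes, and Ccnb2 (chr9:70421555-70421674, minus strand) has evenly spaced CCAAT boxes that begin at -87, -54 and -21 from the start. Mcm6 (chr1:128359706-128359825, minus strand), a replication gene, has TTTNNCGC at 3 places, of which those that begin at -110 and, reversed, at -106 overlap.
Mki67: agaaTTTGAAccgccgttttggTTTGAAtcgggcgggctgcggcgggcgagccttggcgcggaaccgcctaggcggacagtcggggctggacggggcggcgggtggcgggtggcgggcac
Cdc20: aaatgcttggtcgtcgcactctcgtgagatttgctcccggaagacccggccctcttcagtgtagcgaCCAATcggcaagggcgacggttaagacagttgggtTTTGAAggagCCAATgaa
Top2a: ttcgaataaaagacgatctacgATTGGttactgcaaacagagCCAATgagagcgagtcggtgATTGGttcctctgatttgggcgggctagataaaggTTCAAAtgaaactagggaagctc
Ccnb2: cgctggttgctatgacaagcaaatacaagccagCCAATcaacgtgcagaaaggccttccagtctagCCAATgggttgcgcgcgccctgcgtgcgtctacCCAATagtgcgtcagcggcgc
Mcm6: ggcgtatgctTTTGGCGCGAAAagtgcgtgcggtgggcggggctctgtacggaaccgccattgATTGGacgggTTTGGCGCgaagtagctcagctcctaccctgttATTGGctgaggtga

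Across the 10 libraries most mitosis genes were low in the oil pools, higher in the CCl4 pools and highest in the tumours, while fewer of the replication and G1/S genes took that order. Tumour 1 was the highest library for 35 of the 40 genes (23 of 23 mitosis genes and 12 of 13 replication genes). Of all 12648 tested genes, 3222 were above all 8 liver pools in tumour 1. The normal-diet oil pool of 12 weeks was the lowest for 18 of 40, and the share of all genes lowest there was not counted. Set per exon length (reads per base of exon, scaled to the same total in each library), cyclin D1 was the most abundant of the 40 with a mean of 59.1 over the 10 libraries. Pcna, the sliding clamp of the DNA polymerases, followed at 28.1 and the ribonucleotide reductase subunit Rrm2 at 11.0. Mean levels of the mitosis genes on that scale ran from 0.443 (Cenpf) to 6.43 (Cdc20). Over the 10 libraries, Pearson's r with the mean of the standardised mitosis genes was 0.996 for Kif20a, 0.931 for Rrm2, 0.922 for Mcm2, 0.226 for Pcna, 0.147 for E2f1 and -0.20 for Tk1. These coefficients describe 10 libraries of different conditions, and the mitosis genes are part of the mean they are set against.

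**Figure D1:**
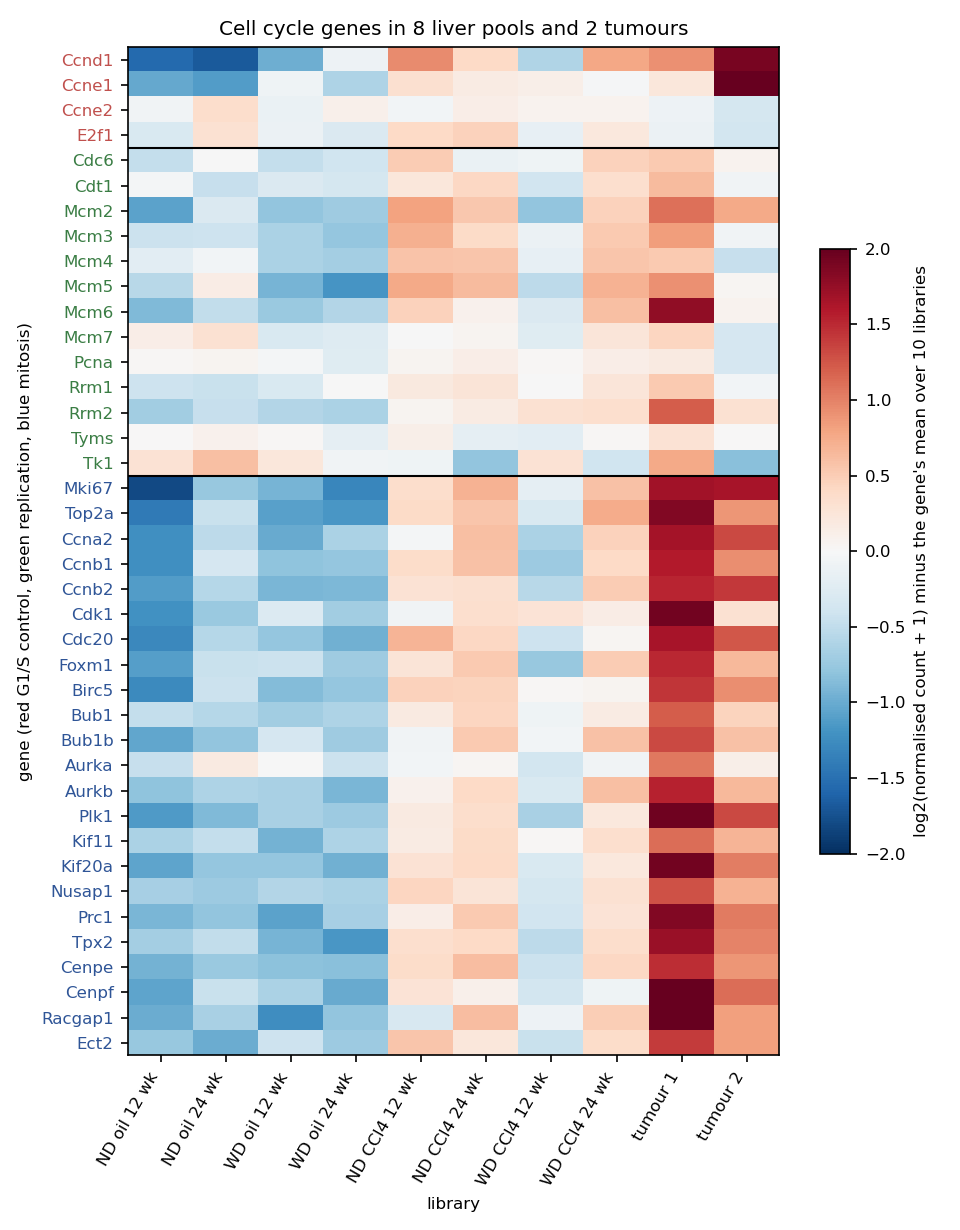
Level of each of the 40 genes (rows, by phase) in each of the 10 libraries (columns), as log2(normalised count + 1) minus the gene's mean over the libraries, with colours ending at 2 either way. The mitosis rows other than Aurka are low in the 4 oil pools, every mitosis row is highest in tumour 1, and the Tk1 and Pcna rows do not share this order.

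CCl4 on a normal diet was set against oil on a normal diet, which asks what the toxin did without the Western diet. Of the 40 genes, 30 rose and 1 fell, where 15.3% of the 12648 tested genes rose and 10.6% fell. Those 30 were 22 of 23 mitosis genes, 6 of 13 replication genes and 2 of 4 G1/S genes, and the 1 that fell was Tk1. The median log2 change over all members of the phase was 1.16 for mitosis, 0.66 for replication and 0.88 for G1/S control, on the log2(value + 1) scale, which understates the change of low genes. Ccne2 stayed under the filter on low values (at least 1 in at least 2 libraries). Only 28 of the 40 would have passed that filter on the oil pools alone (13 of 23 for mitosis), so some genes were testable because they were high in CCl4 pools or tumours, and had to differ. Of the 13 mitosis genes that pass on the oil pools alone 12 rose, as did 6 of 12 replication genes and 2 of 3 G1/S genes.

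Ccnd1 (chr7:144929931-144939925, minus strand, GRCm38), which encodes cyclin D1, had the largest rise on the log2(value + 1) scale, though edgeR gave larger changes to Cenpe (2.78), Ccnb1 (2.74) and Plk1 (2.64) than to Ccnd1 (2.40). Oil pools held 24.4 at 12 weeks and 22.4 at 24 weeks, and CCl4 pools held 143 and 97.9, and values of a pair are given in this order of time throughout. The CCl4 pools were both above both oil pools, and the log2 change was 2.29 ± 0.38 (SE; limma adjusted p = 0.00385). In 23.4% of its exon bases Ccnd1 overlaps Oraov1 on the other strand, and the labels do not say that counting used strand. Oraov1 was at 10.2 and 10.8 in the same oil pools and at 15.2 and 11.9 with CCl4. Cyclin E1 (Ccne1) went from 0.665 and 0.549 to 3.22 and 2.79, a rise of 1.32 ± 0.21 (limma adjusted p = 0.00326). E2f1, one of the E2F transcription factors, was at 4.21 and 6.95 with oil and 7.56 and 7.93 with CCl4. Its change of 0.44 did not pass the test (limma adjusted p = 0.163).

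Among replication genes the helicase subunits Mcm2, Mcm3, Mcm4 and Mcm6 and both ribonucleotide reductase subunits rose. Mcm2 was at 2.84 and 5.63 with oil and at 13.1 and 10.8 with CCl4, a rise of 1.35 ± 0.32 (limma adjusted p = 0.0177). Mcm3 rose by 0.98 ± 0.24, from 4.97 and 5.03 to 12.3 and 9.50, and Mcm6 by 0.96 ± 0.26, from 5.06 and 6.95 to 14.4 and 10.9. For all 3 genes, which were picked by the test on these pools, the groups did not overlap. Mcm5 had a change of similar size (0.90) but did not pass (limma adjusted p = 0.0788), with 2.84 and 5.22 against 8.55 and 7.69. Mcm7, the helicase subunit whose transcript hosts Mir25 and Mir93, was at 15.3 and 17.3 with oil and at 13.7 and 14.4 with CCl4. Of the reductase subunits, which make deoxyribonucleotides, Rrm1 went from 9.49 and 9.33 to 15.2 and 15.9 and Rrm2 from 5.63 and 6.77 to 10.2 and 11.0. Pcna was at 24.5 and 24.8 with oil and 24.9 and 26.4 with CCl4, a change of 0.06 that did not pass (limma adjusted p = 0.782). Tyms, thymidylate synthase, was at 8.21 and 8.69 against 8.95 and 7.04. Pcna and Tyms have processed pseudogenes, and how reads were shared with these copies is not given in the sources used here.

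Tk1, the cytosolic thymidine kinase of S phase, fell by 0.88 on the log2 scale, with an SE of 0.24 (limma adjusted p = 0.0265). It was at 21.2 and 26.6 with oil and at 16.2 and 9.50 with CCl4, so both CCl4 pools lay below both oil pools. Afmid lies on the opposite strand, and its exons share 83 bases with Tk1, which is 1.60% of the exon bases of Tk1. Afmid was at 163 and 162 with oil and at 88.1 and 61.1 with CCl4. Over the 10 libraries the log2 levels of Tk1 and Afmid had a Pearson r of 0.906, given as a description of libraries that share their conditions. Reads of the 2 genes cannot be told apart where they overlap unless strand was used, and the part of Afmid in the Tk1 values was not tested.

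Of the 23 mitosis genes all but Aurka rose. Mki67 (chr7:135689784-135716361, minus strand), the Ki-67 proliferation marker that coats mitotic chromosomes, went from 1.06 and 3.29 to 8.27 and 10.7, a rise of 1.81 ± 0.31 (limma adjusted p = 0.00444). Cdc20, the activator of the anaphase-promoting complex, went from 0.710 and 1.83 to 5.69 and 4.60, a rise of 1.48 ± 0.27 (limma adjusted p = 0.00622). Topoisomerase II alpha (Top2a), which untangles sister chromatids, went from 1.15 and 3.20 to 6.48 and 7.45, a rise of 1.40 ± 0.29. The kinetochore motor Cenpe went from 0.266 and 0.457 to 2.15 and 2.73, a rise of 1.34 ± 0.25. All 4 genes had both CCl4 pools above both oil pools, and they were picked by a test on these same pools. Cyclin B1 (Ccnb1), the partner of Cdk1 at mitotic entry, had 0 reads in the oil pool of 12 weeks, a count that allows up to 3 reads. It had 19 reads in the oil pool of 24 weeks and 51 and 85 reads in the CCl4 pools. Of the spindle kinases, Plk1 (0.266 and 0.503 against 2.15 and 2.52) and Aurkb (0.355 and 0.549 against 1.51 and 2.14) rose. Aurka, the centrosomal Aurora kinase, was the 1 mitosis gene that did not pass (limma adjusted p = 0.727). It was at 2.71 and 4.76 with oil and at 3.90 and 4.25 with CCl4, and those groups overlapped.

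Another 130 cell cycle genes outside the 40 were counted in the same comparison, to be read against the 15.3% of tested genes that rose. Of 67 further mitosis genes 29 rose and 3 fell, of 39 further replication genes 4 rose (Uhrf1, Chaf1a, Lig1 and Gins2), of 17 further G1/S genes 2 rose (Rbl1 and Ccnd2) and of 7 CDK inhibitors 1 rose (Cdkn2c). Outside mitosis these shares were near or below that of all genes. The largest mitosis rises were those of Iqgap3 (1.42), Cdca3 (1.37) and Hmmr (1.35). The 3 that fell were Cks2 (-0.80), a small partner of Cdk1, Ccnf (-0.61), which encodes cyclin F, and securin, Pttg1 (-0.51), the inhibitor of separase. Pttg1 was at 27.7 and 26.5 with oil and at 19.5 and 18.0 with CCl4. The median over each list was 0.65 for mitosis, 0.18 for replication, 0.14 for G1/S control and 0.27 for the inhibitors.

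Marker genes of other cell types moved in the same comparison. Of 9 macrophage markers 8 rose, and their summed level was 289 and 411 with oil and 673 and 1044 with CCl4. Of 6 stellate cell markers 5 rose (sums of 168 and 181 against 334 and 519), of 5 endothelial markers 3 rose, of 5 bile duct markers 2 rose, and of 8 hepatocyte markers 2 fell. The B and plasma cell sum was 29.3 in unexposed liver of 24 weeks, against 3.64 to 8.35 in each other library. The haemoglobin genes Hba-a1 and Hbb-bs were at 0 reads in every library. The part of these cell types in the cell cycle values was not tested.

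The count of rises in this comparison depended on single pools. It was 16 without the oil pool of 12 weeks, 7 without that of 24 weeks, 8 without the CCl4 pool of 12 weeks and 10 without that of 24 weeks. Kif20a, Ccne1 and Mki67 were called whichever library was left out. All 31 called genes kept their direction under every alternative, but the alternatives reuse the pools that picked these genes.

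**Figure D2:**
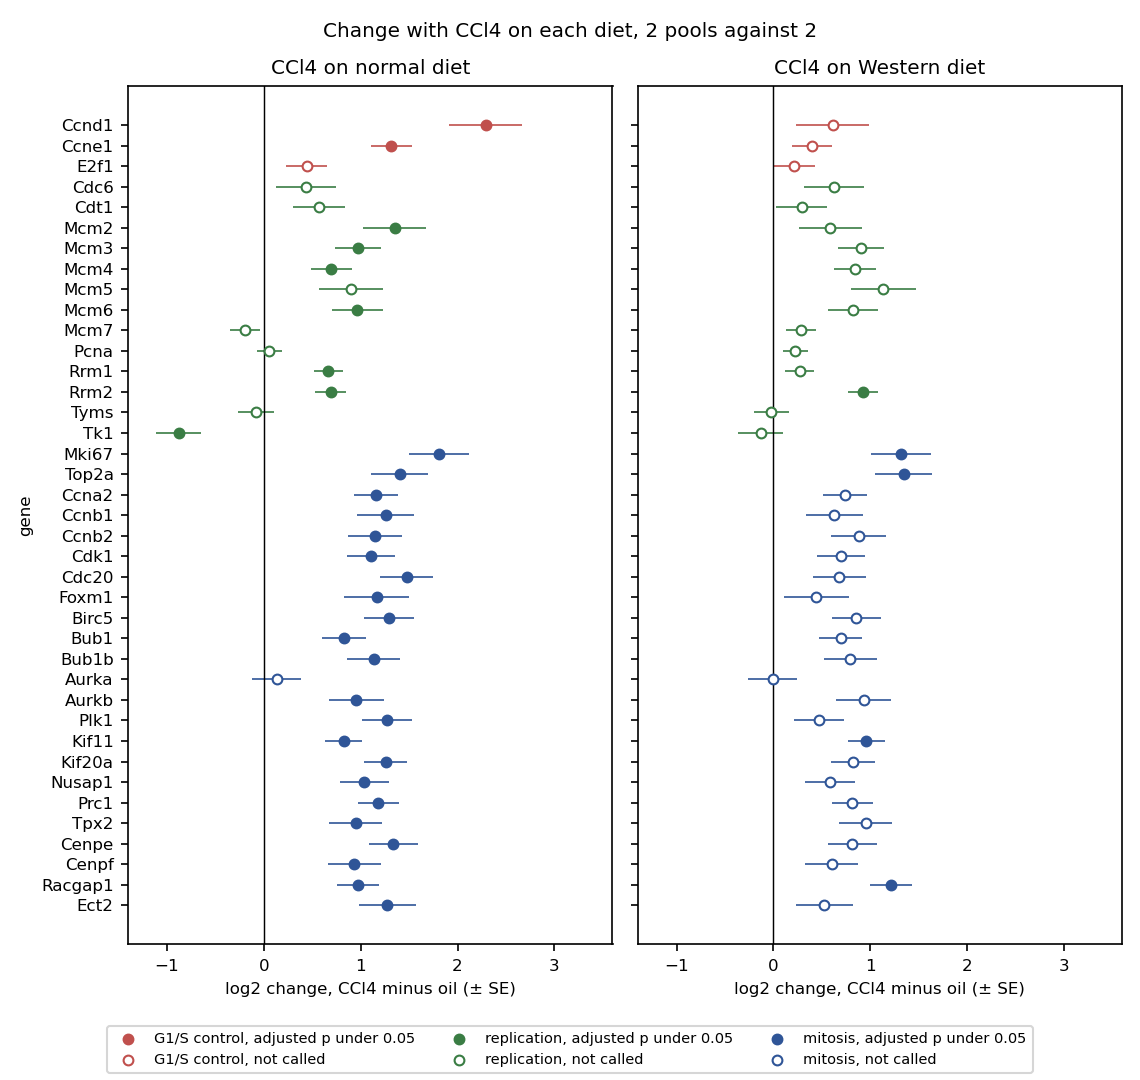
Log2 change with CCl4 on normal diet (left) and on Western diet (right), CCl4 minus oil, for the 39 tested genes, with bars of 1 SE and filled points for adjusted p under 0.05. On normal diet 22 of the 23 mitosis genes are filled and Tk1 is the filled point to the left of 0, and on Western diet 5 points are filled.

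Western diet alone was set against normal diet, both with oil. None of the 40 genes passed the test in limma, where 1.99% of tested genes were called in either direction. None passed in edgeR or DESeq2 either. At an unadjusted p under 0.05 there were 5, below the 17.5% of all tested genes. Of these, Ccnd1 (log2 change 1.09, limma adjusted p = 0.191) and Ccne1 (0.71, limma adjusted p = 0.133) had positive changes and Mcm4, Mcm5 and Mcm7 negative ones (-0.52, -0.85 and -0.50). Ccnd1 was at 37.2 and 69.1 in the Western-diet oil pools, against 24.4 and 22.4 on normal diet, and these did not overlap. Mcm5 was at 1.97 and 1.48 against 2.84 and 5.22. The median change was 0.02 for the mitosis genes. It differed between durations. In the Western-diet oil pool of 12 weeks 18 of 23 mitosis genes were above the normal-diet oil pool of that time, and at 24 weeks 6 of 23 were. Of the 12648 tested genes, 6622 were above at 12 weeks and 6615 at 24 weeks. Among the further genes Cdkn2c, the CDK inhibitor p18, was the only one called (1.90 ± 0.24, limma adjusted p = 0.00928), at 9.998 and 12.6 against 2.66 and 1.92. Of 9 macrophage markers 4 rose with the diet.

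Both exposures together were set against unexposed liver. This comparison shares its oil pools with CCl4 on normal diet. Of the 40 genes 16 rose and 0 fell, where 15.7% of tested genes rose and 10.2% fell. The 16 were 11 mitosis genes, 3 replication genes (Rrm2, Mcm6 and Rrm1) and the cyclins Ccnd1 and Ccne1. Ccnd1 was at 48.1 and 126 in the pools of 12 and 24 weeks with both exposures, a rise of 1.70 ± 0.38 (limma adjusted p = 0.0124). Ccne1 was at 2.65 and 2.30 (1.11 ± 0.21, limma adjusted p = 0.00602). Rrm2 was at 12.2 and 12.5, a rise of 0.90 ± 0.16 (limma adjusted p = 0.00441). Mki67 was at 5.38 and 9.91, a rise of 1.49 ± 0.31, and Cdk1, the kinase that drives mitotic entry, was at 5.95 and 5.40 against 1.51 and 2.47, a rise of 1.18 ± 0.25. Bub1b, the checkpoint kinase BubR1, was at 1.88 and 3.48 against 0.444 and 0.732 (1.18 ± 0.27), and Top2a was at 3.65 and 8.62 (1.15 ± 0.29). Of these genes Ccne1 and Cdk1 were higher at 12 than at 24 weeks and the others were lower. The count fell without either unexposed pool or the doubly exposed pool of 24 weeks, and rose without that of 12 weeks. Calls over all tested genes fell in each of these fits. Rrm2 and Ccne1 were called whichever library was left out.

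Of the 7 CDK inhibitors 3 rose with both exposures, namely Cdkn2c (1.64), Cdkn1a (1.51), which encodes the p53 target p21, and Cdkn1c (0.81). Cdkn1a was at 15.4 and 39.6 in unexposed liver and at 76.9 and 68.8 with both exposures. Of the further mitosis genes 8 rose, led by Ncapg2 (1.54), Gtse1 (1.34) and Anln (0.93), and Cks2 and Pttg1 fell, and 8 of 67 is below the 15.7% of all tested genes. Of the further replication genes Uhrf1 rose (1.03), and of the further G1/S genes Rbl1 (0.98). Of 9 macrophage markers 8 rose, to sums of 1271 and 1010, and of 6 stellate cell markers 5 rose. Their part in the cell cycle values was not tested.

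CCl4 on a Western diet was set against oil on a Western diet. These 4 pools are not among those compared on normal diet, but the same fit gives both results a shared duration term and spread. Of the 40 genes 5 rose and 0 fell, where 4.29% of tested genes rose and 2.52% fell. The 5 were Top2a, Mki67, Racgap1, Kif11 and Rrm2, and each of them also rose on normal diet. Top2a went from 1.71 and 1.56 to 3.65 and 8.62 (1.35 ± 0.29, limma adjusted p = 0.0319). Mki67 went from 2.82 and 1.93 to 5.38 and 9.91 (1.32 ± 0.31, limma adjusted p = 0.0414). Racgap1, part of the central spindle complex that directs cytokinesis, went from 0.513 and 1.08 to 2.34 and 4.05 (1.21 ± 0.22). The spindle motor Kif11 went from 0.769 and 1.22 to 2.46 and 3.30 (0.96 ± 0.19). Rrm2 went from 6.15 and 5.93 to 12.2 and 12.5 (0.92 ± 0.16, limma adjusted p = 0.0151). In all 5 genes both CCl4 pools were above both oil pools, which adds nothing to the test that picked them from these pools. Ccnd1, at 37.2 and 69.1 with oil and 48.1 and 126 with CCl4, overlapped and did not pass (0.61, limma adjusted p = 0.356). Tk1 was at 20.3 and 16.3 against 21.2 and 12.8, and overlapped as well. The count fell without either oil pool of this diet or the CCl4 pool of 24 weeks, and rose without that of 12 weeks. Calls over all tested genes fell when any of these pools was left out. None of the 5 was called in every such fit. Cdkn1a (1.36) and Cdkn1c (1.01) rose here too, and 4 further mitosis genes (led by Ncapg2, Ube2c and Gtse1) and the replication genes Uhrf1 and Asf1b. Of 9 macrophage markers 5 rose.

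Whether CCl4 changed the genes by a different amount on the 2 diets was tested by the interaction of diet and CCl4. None of the 40 genes passed in limma, where 0.103% of tested genes were called, and none passed in edgeR or DESeq2. At an unadjusted p under 0.05 there were 2, below the 8.94% of all tested genes, Ccnd1 (-1.68 ± 0.54) and Ccne1 (-0.92 ± 0.30), each with a limma adjusted p of 0.414. The median change was 1.16 on normal diet and 0.79 on Western diet for the mitosis genes, and 20 of the 23 had the smaller change in size on Western diet. For replication genes it was 0.66 and 0.59, and 7 of 13 had the smaller change in size on Western diet. The share of all tested genes with the smaller change on Western diet was not counted. The interaction was negative for 6767 of the 12648 tested genes and for 20 of the 23 mitosis genes. Such counts are not a test of a difference between the diets. The medians above join both durations. Between single pools of 12 weeks, the mitosis median of CCl4 minus oil was 1.31 on normal diet and 0.37 on Western diet. Between those of 24 weeks it was 1.01 and 1.10, so the smaller median on Western diet was seen at 12 weeks only. Only 28 of the 40 genes (13 of 23 for mitosis) would pass the filter on low values on the oil pools alone. The separation of the others was partly set by that filter. Across both diets, 21 of the 40 genes had all 4 CCl4 pools above all 4 oil pools, where 13.6% of tested genes did. They were 16 of 23 mitosis genes, 4 of 13 replication genes (Mcm3, Mcm6, Rrm1 and Rrm2) and Ccne1.

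**Figure D3:**
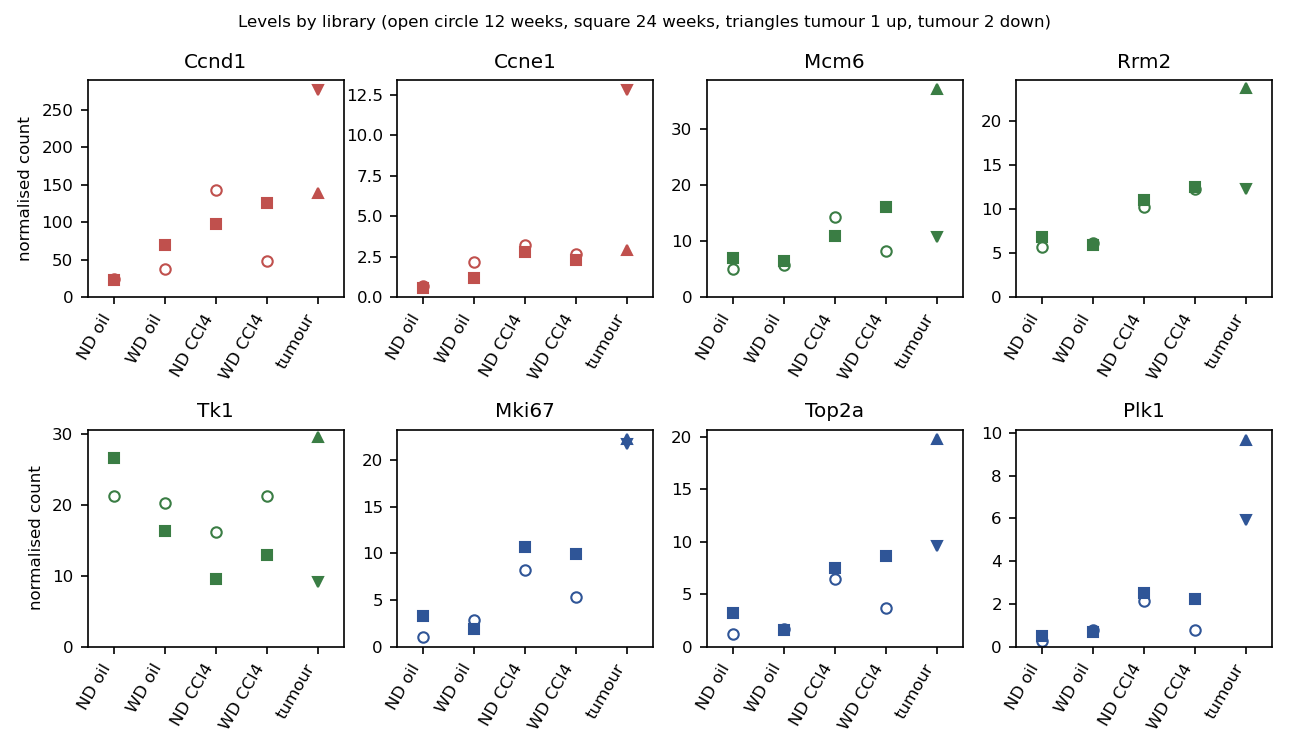
Normalised counts of 8 genes in each library, by group, with circles for 12 weeks, squares for 24 weeks and triangles for tumours 1 (up) and 2 (down). Rrm2 separates all CCl4 pools from all oil pools, Ccnd1 and Ccne1 are highest in tumour 2, and Tk1 is lowest in tumour 2 and in the normal-diet CCl4 pool of 24 weeks.

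The durations were compared over all 8 pools, 24 against 12 weeks. None of the 40 genes passed in limma, where 0% of tested genes were called, and none passed in edgeR or DESeq2. At an unadjusted p under 0.05 there were 5, near the 11.7% of all tested genes, all of mitosis with positive changes: Ccna2 (0.70, limma adjusted p = 0.334), Racgap1 (0.58), Ccnb1 (0.57), Top2a (0.53) and Prc1 (0.40). The differences between the pools of each condition, which have no replicate, were uneven. With both exposures 36 of 40 genes were higher at 24 weeks, by a median of 0.64, and on normal diet with oil 33 of 40 were, by 0.28. With CCl4 on normal diet 25 of 40 were higher at 24 weeks, by a median of 0.07, and with oil on Western diet 15 of 40 were, with a median of -0.07. Over all tested genes the same medians lay between -0.02 and 0.02. The doubly exposed pool of 12 weeks was below the CCl4 pool on normal diet of that time for 6343 of 12648 tested genes. It was below for 34 of the 40 genes, with a median difference of -0.59, and at 24 weeks that difference was -0.05. For example Foxm1, the transcription factor of the mitotic genes, was at 0.614 in the doubly exposed pool of 12 weeks and at 2.87 in that of 24 weeks, and at 2.27 and 2.91 with CCl4 on normal diet. Ect2, the activator of RhoA at the division furrow, was at 2.34 and 4.85 against 5.73 and 4.33.

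The tumours were set against non-tumour liver of Western diet with CCl4, 2 libraries against the pools of both durations. None of the 40 genes passed the limma test, in which 0.972% of tested genes were called, and none passed in edgeR. In DESeq2 6 passed, where 745 of all tested genes did against 123 in limma. At an unadjusted limma p under 0.05 there were 16, all of mitosis, where 16.7% of tested genes passed that level. Both tumours were above both exposed pools for 26 of the 40 genes, where 20.6% of tested genes were. The 26 were 23 of 23 mitosis genes, Mcm2, Ccnd1 and Ccne1. Both tumours were above all 8 liver pools for 21 of 40 genes, all of mitosis, where 10.2% of tested genes were. The 2 mitosis genes outside that count were Cdk1 and Aurka.

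The largest tumour changes, none of them called, were in Cenpf, Plk1 and Cdc20. Cenpf, a kinetochore protein, was at 1.04 and 1.47 in the exposed pools and at 10.3 and 4.66 in tumours 1 and 2 (1.80 ± 0.40, limma adjusted p = 0.0894). Polo-like kinase 1 (Plk1) was at 0.768 and 2.21 against 9.70 and 5.94 (1.71 ± 0.33, limma adjusted p = 0.0596). Cdc20 was at 2.15 and 3.30 against 12.2 and 8.89 (1.54 ± 0.32, limma adjusted p = 0.0720). In each of these genes the tumours lay above all pools and tumour 1 above tumour 2. Mki67 was alike in both tumours, at 22.2 and 21.7. Leaving out either tumour raised the number of called genes, and raised it over all tested genes as well. Such fits assume that the lone tumour varies like the other groups.

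The 2 tumours differed from each other in phase. Tumour 1 was above all 8 pools for 23 of 23 mitosis genes and 12 of 13 replication genes, and tumour 2 for 21 of 23 mitosis genes, 0 of 13 replication genes and 2 of 4 G1/S genes. Of all tested genes, 3222 were above all pools in tumour 1 and 3220 in tumour 2. Tumour 1 was above tumour 2 for 6277 of the 12648 tested genes. It was above for 38 of the 40 genes, with a median log2 difference of 0.68. The exceptions were Ccnd1, at 139 and 277 in tumours 1 and 2, and Ccne1, at 2.93 and 12.8. Against the exposed pool of 24 weeks, tumour 2 was higher for 23 of 23 mitosis genes, with a median of 0.47, and lower for 12 of 13 replication genes, with a median of -0.45. Tumour 1 was higher for 23 of 23 and 12 of 13, with medians of 1.12 and 0.28. Mcm6 was at 37.1 in tumour 1 and 10.8 in tumour 2, against 8.18 and 16.1 in the exposed pools. Mcm4 was at 9.54 and 4.31, against 5.57 and 9.74. Tk1 was at 29.6 and 9.16, the highest and the lowest of the 10 libraries, and Afmid on the other strand was at 148 and 50.7. With 1 library each, the tumours allow no test of the difference between them.

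**Figure D4:**
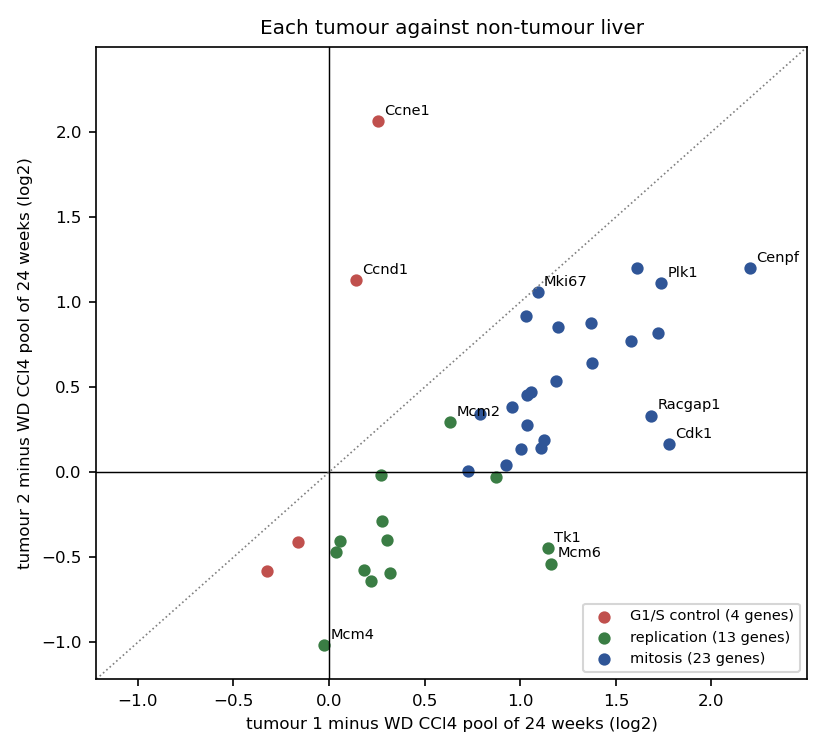
Each of the 40 genes as the log2 difference of tumour 1 (x axis) and of tumour 2 (y axis) from the pool of Western diet with CCl4 at 24 weeks, with the dotted line where both are equal. All 23 mitosis genes lie right of 0 and above 0, 12 of 13 replication genes lie below 0 for tumour 2, and Ccne1 and Ccnd1 lie above the line.

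Of the 7 inhibitors of the cycle, Cdkn1a and Cdkn2b differed most between the tumours. Others were closer, with Cdkn1b at 17.9 and 21.6 in tumours 1 and 2 and Cdkn2c at 8.99 and 9.32. Cdkn1a was at 200 in tumour 1 and 34.5 in tumour 2. Cdkn2b, which encodes p15, was at 0.274 to 0.804 in the 8 pools, at 1.99 in tumour 1 and at 20.1 in tumour 2. Neither passed the tumour comparison. Among the 130 further genes 1 was called there, the centromeric histone Cenpa, at 3.65 and 4.60 in the exposed pools and 10.5 and 14.0 in the tumours (1.32 ± 0.22, limma adjusted p = 0.0487), a share close to the 0.972% of all tested genes. Of 67 further mitosis genes 61 had positive changes, with a median of 0.70, and of 39 further replication genes 23 did, with a median of 0.05. Macrophage marker sums were 638 and 517 in the tumours, below the 1271 and 1010 of the exposed pools. The bile duct markers were mixed, with 2 of 5 changes positive. Sox9 (32.3 and 25.9 against 10.1 and 18.4) was higher in both tumours than in both exposed pools. Spp1 (357 and 772 against 121 and 524) overlapped, with tumour 1 below the exposed pool at 524. Krt7, Krt19 and Epcam were lower in the tumours, as with Krt19 at 1.13 and 0.699 against 2.30 and 8.99. The part of these cells was not tested.

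Of the 39 tested genes 8 were called in no comparison of liver pools: E2f1, Cdc6, Cdt1, Mcm5, Mcm7, Pcna, Tyms and Aurka. They were 6 of 13 replication genes, 1 of 23 mitosis genes and 1 G1/S gene. Not being called was common, as with CCl4 on normal diet 15.3% of tested genes rose and 10.6% fell. The share of all tested genes called in no comparison was not counted. Cdt1, the licensing factor, was at 2.38 to 3.55 in the oil pools and 2.57 to 5.20 in the CCl4 pools. Its partner Cdc6 was at 0.0855 to 0.503 and 0.386 to 1.15, with 2 to 38 reads in the pools. Ccne2, the second E-type cyclin, stayed between 0.272 and 1.05 in the 10 libraries. Exon overlap with genes of the other strand also touches Kif20a (29.3% of its exon bases, with Cdc23), Ccna2 (12.5%, Exosc9) and Prc1 (11.1%, Rccd1). Cdc23 stayed between 7.56 and 11.9 and Exosc9 between 7.31 and 14.9 in the 10 libraries. Oip5, also on the other strand, overlaps 4.24% of the exon bases of Nusap1. Oip5 and Nusap1 had a Pearson r of 0.943 over these libraries, which share their conditions.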

How the data were processed

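Flash-frozen mouse liver and tumour tissue was extracted with an RNeasy kit, and poly-A selected libraries were made with a TruSeq kit from 200 ng of total RNA, per the labels' protocols. The submitters' processing notes name STAR and mm10 without versions. The sources used here do not give the counter, the annotation, the use of strand or the scaling method. Normalised values (signal) of 24062 genes in 10 libraries were deposited by the authors, and 100% of values were whole reads, within 0.01 reads, times 1 constant per library.

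Values were taken as log2(value + 1). Genes at 1 or more in at least 2 of 10 libraries were tested (12648). Two-sided tests came from limma 3.58.1 under R 4.3.3, by lmFit and then eBayes with a trend, with a mean per condition and a duration term over the 8 pools (all 10 libraries for tumours). Benjamini-Hochberg adjustment took in every tested gene, with a threshold of 0.05. Alternatives were a pseudocount of 0.1, other filters, median-ratio factors, no trend, no duration term, other sets of libraries, edgeR 4.0.16 and DESeq2 1.42.0 on recovered reads, and leaving out each library. The fits were tested on simulated data. The members and lists were chosen with earlier results of these data known. Up to 4 called genes per phase and 3 per further list were named by size of change. Genes were located with GENCODE M21. Floors cover counting error only.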

Additional observations from a re-analysis of the deposited data

How the results depend on the processing

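All 31 genes called for CCl4 on normal diet, 16 for both exposures and 5 for CCl4 on Western diet kept their direction under every alternative run. Those runs reuse the libraries that picked the genes, so the kept direction is no independent support. Without a filter on low values, the counts of rises were 11, 5 and 0 instead of 30, 16 and 5, with every gene above 0 in any library in the adjustment. Calls over all genes, in either direction, were then 1353, 1887 and 3 instead of 3285, 3278 and 862. With all 10 libraries in the fit, where the spread of the tumours enters, the rises were 3, 1 and 0, and 437, 796 and 6 of all tested genes were called. Without the duration term the rises were 10 for both exposures and 1 for CCl4 on Western diet, and 4 genes were called in the tumour comparison instead of 0. Over all tested genes that fit called 2771, 203 and, for tumours, 388 instead of 123. DESeq2 called 15 genes for CCl4 on Western diet and 6 for tumours, and 1319 and 745 of all tested genes. Leaving out 1 library gave 7 to 31 rises for CCl4 on normal diet, 3 to 22 for both exposures, 0 to 13 for CCl4 on Western diet and 0 to 22 calls for tumours. A lone pool is then assumed to vary like the other groups. The duration term matches pools of the same time, and the labels give no other pairing. Depth limited the mitosis genes in oil pools, where the median gene had 16 to 28 reads.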

Other observations

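Outside the cell cycle lists, the 10 tested genes whose levels were most like the mean of the standardised mitosis genes had a Pearson r of 0.974 to 0.987 over the 10 libraries. They were Steap4, C330027C09Rik, Ralb, Spdl1, Cep55, Atxn10, Adora1, Parpbp, Nupr1 and Casp12, and the libraries they share come from different conditions. Cep55 (abscission) and Spdl1 (kinetochore checkpoint) have known roles in mitosis. Steap4, a metalloreductase, was at 124 to 155 in the oil pools, 195 to 275 in the CCl4 pools and 411 and 281 in tumours 1 and 2. Casp12, a caspase, was at 1.20 to 3.04 in the oil pools, 4.26 to 16.6 in the CCl4 pools and 50.3 and 20.8 in the tumours. Nupr1, a stress response gene, was at 0.640 to 1.26, 1.69 to 5.17, and 19.6 and 5.59.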
